A study of Mus musculus with 30 samples.

Results

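The PAF1 complex is a set of proteins that rides with RNA polymerase II along genes, and its transcripts were followed through 1 day in mouse retinal pigment epithelium (RPE), the pigmented cell layer behind the photoreceptors. Its members here were the 5 genes Leo1, Paf1, Ctr9, Cdc73 and Rtf1, found by symbol among the 51904 genes of the deposited table. All 5 were among the 16741 genes kept for testing, those with an FPKM (fragments per transcript length and per mapped total) of at least 1 in at least 5 samples. Leo1 had been chosen by its fitted 24 h rhythm in these same FPKM values, so its levels through the day are given as a description, with no test. The other 4 were picked because they encode partners of Leo1 in the complex.

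The samples came from 30 male wild-type C57BL/6 mice, 10 to 13 weeks old, 5 per time point, and the 6 time points were ZT0, ZT2, ZT4, ZT9, ZT14 and ZT19 (zeitgeber time in hours, where ZT0 is by convention lights-on). None was treated, and no sample was pooled: each holds RNA from 1 eye of 1 mouse, 16 left and 14 right eyes. The eyes were spread unevenly over the day. Left eyes numbered 3 of 5 at ZT0, 1 at ZT2, 5 at ZT4, 2 at ZT9, 4 at ZT14 and 1 at ZT19. The tissue was not sorted: after the front of the eye and the retina had been taken off, clumps of RPE were lifted from the choroid. Replicate numbers name a sample and pair none.

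The complex is known for coupling elongation by RNA polymerase II to marks on the chromatin behind it, among them ubiquitin on histone H2B and methyl groups on histone H3. Paf1 and Ctr9 form its core, Leo1 and Cdc73 are held by that core, and Rtf1, which carries the domain that stimulates H2B ubiquitylation, is bound more loosely in mammals. A further mammalian subunit is encoded by Wdr61 (now Skic8), which is shared with a complex of cytoplasmic RNA decay. Its values are given beside those of the 5 members.

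Leo1 (ENSMUSG00000042487) lies on chromosome 9, start 75441524, end 75466432, on the plus strand of mm10 (GENCODE M21 annotation), and has 3 annotated transcripts, 1 of them coding. It overlaps no other annotated gene. Its neighbours were nearly silent: the long noncoding RNA gene 4933433G15Rik, 23815 bp before it, reached at most 1.77 FPKM, and the pseudogene Gm7972, 2184 bp after it, at most 1.08 FPKM. The stretch of 250 bases before its start is shown because it holds, in capitals, AA, any 1 base and then TAGGTCA, the form of element that nuclear receptors of the clock are known to bind. These letters were chosen after this promoter had been read, from RefSeq on GRCm38.p6. The same letters, again in capitals, stand in a promoter of Arntl, the gene for the clock activator BMAL1, shown because Arntl is the gene most like Leo1 in the values given further on.
Leo1, chr9:75441274-75441523, plus strand: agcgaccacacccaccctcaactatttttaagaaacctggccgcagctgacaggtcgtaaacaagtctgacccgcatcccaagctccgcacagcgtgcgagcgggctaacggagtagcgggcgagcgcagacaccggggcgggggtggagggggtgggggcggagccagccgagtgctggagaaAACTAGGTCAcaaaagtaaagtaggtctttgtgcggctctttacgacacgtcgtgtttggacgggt
Leo1 around the match, chr9:75441448-75441477, plus strand: tgctggagaaAACTAGGTCAcaaaagtaaa
Arntl around the match, chr7:113207528-113207557, plus strand: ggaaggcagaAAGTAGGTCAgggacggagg

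In Leo1 the match begins 66 bases before the annotated start, and in Arntl 27 bases after 1 of the gene's 2 RefSeq starts. Searched on both strands of 32851 RefSeq promoters (250 bases before to 50 after each start), the letters were found in 72 promoters, or 0.219%. The shorter stretch AGGTCA inside them is common and was found in 16.3% of the promoters. Of the kept genes 20 had a promoter with the longer letters. Leo1 was chosen by its rhythm and Arntl by its likeness to Leo1, so neither can count in a test of these genes. Of the rest, none had an unadjusted p under 0.05 in limma's test for a 24 h rhythm. Among all kept genes with a promoter 8.86% did. Both Leo1 and Arntl are still included in the 20 genes of the next values. The median fitted amplitude of the 20 was 0.24, against 0.21. A fitted peak within 6 h of that of Leo1 was found in 15 (75%, Leo1 and Arntl included), against 53.3%. The differences were not tested. The table held promoters for Leo1, Paf1, Cdc73 and Rtf1 among the 5 members. Of these 4 only Leo1 held AGGTCA, as part of the longer letters, and none held CACGTG, the letters of the E-box (in 7.15% of all promoters), or TTATGTAA, those of the D-box (in 0.938%). A match describes letters in this window and shows no binding, and an absent match says only that the letters are not there.

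Paf1 (ENSMUSG00000003437, chromosome 7, start 28392951, end 28399388) and Ctr9 (ENSMUSG00000005609, chromosome 7, start 111028951, end 111056377) lie on the plus strand, as does Rtf1 (ENSMUSG00000027304, chromosome 2, start 119675068, end 119735407). Cdc73 (ENSMUSG00000026361, chromosome 1, start 143598800, end 143702893) lies on the minus strand and spans B3galt2 on the other strand, whose level was low (median 1.43 FPKM, from 0.0999 to 5.67). Wdr61 (ENSMUSG00000061559, chromosome 9, start 54714735, end 54734519, minus strand) overlaps Dnaja4 (median 18.1 FPKM) on the other strand. Whether the authors counted reads by strand is not given in the sources used here, so reads of Cdc73 and Wdr61 cannot be told apart from those of the genes they overlap.

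The estimated depth of the libraries was 12.5 to 23.0 M reads (M: mega). Behind the members' values stood a median of 590 estimated reads per sample for Leo1, 1484 for Paf1, 1132 for Ctr9, 2941 for Cdc73 and 1180 for Rtf1, with a lowest value of 245 for Leo1 in any sample. RPE markers were abundant throughout: the mean log2(FPKM + 1) of 10 of them, their score, was 8.11 to 9.52, and none was at 0 in all samples. Markers of other tissues were present too and varied more, with a rod score of 1.59 to 9.50, a surface epithelium score of 6.88 to 10.6 and a skeletal muscle score of 6.86 to 10.3, so no member's RNA can be assigned to RPE cells alone. ZT14 replicate 3 stood apart, with 12754 genes above 0 against 16723 to 19374 in the other 29 samples. In such bulk samples fewer cells of a type and less RNA per cell cannot be told apart.

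Leo1, whose product binds the core of the complex and is needed for its hold on chromatin in yeast, was highest around lights-on and lowest at ZT9. At ZT0 the 5 mice had 15.6, 18.5, 21.5, 24.95 and 25.3 FPKM, a mean of 21.2 ± 4.18 (SD, n = 5). At ZT2 they had 18.6, 19.2, 19.3, 21.3 and 23.4 FPKM, a mean of 20.4 ± 1.96 (n = 5). These 10 mice held the 3 highest values of all 30, and only 1 of the 10, at ZT0, was below 18 FPKM.

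By ZT4 the level was lower, with 8.82, 14.5, 14.96, 16.1 and 18.7 FPKM and a mean of 14.6 ± 3.62 (n = 5). At ZT9 the mice had 5.39, 7.01, 9.54, 9.85 and 15.3 FPKM, a mean of 9.41 ± 3.76 (n = 5). The highest ZT9 value stayed below the lowest value of ZT0, of ZT2 and of ZT19, so ZT9 did not overlap these 3 time points. At ZT14 the values were 8.95, 11.9, 12.5, 12.9 and 21.5 FPKM, a mean of 13.5 ± 4.72 (n = 5), and 1 mouse stood well above the other 4. At ZT19 they were 16.0, 16.9, 17.1, 18.9 and 19.1 FPKM, a mean of 17.6 ± 1.36 (n = 5), the tightest group of the 6. The highest time point mean was 2.25 times the lowest.

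**Figure D1:**
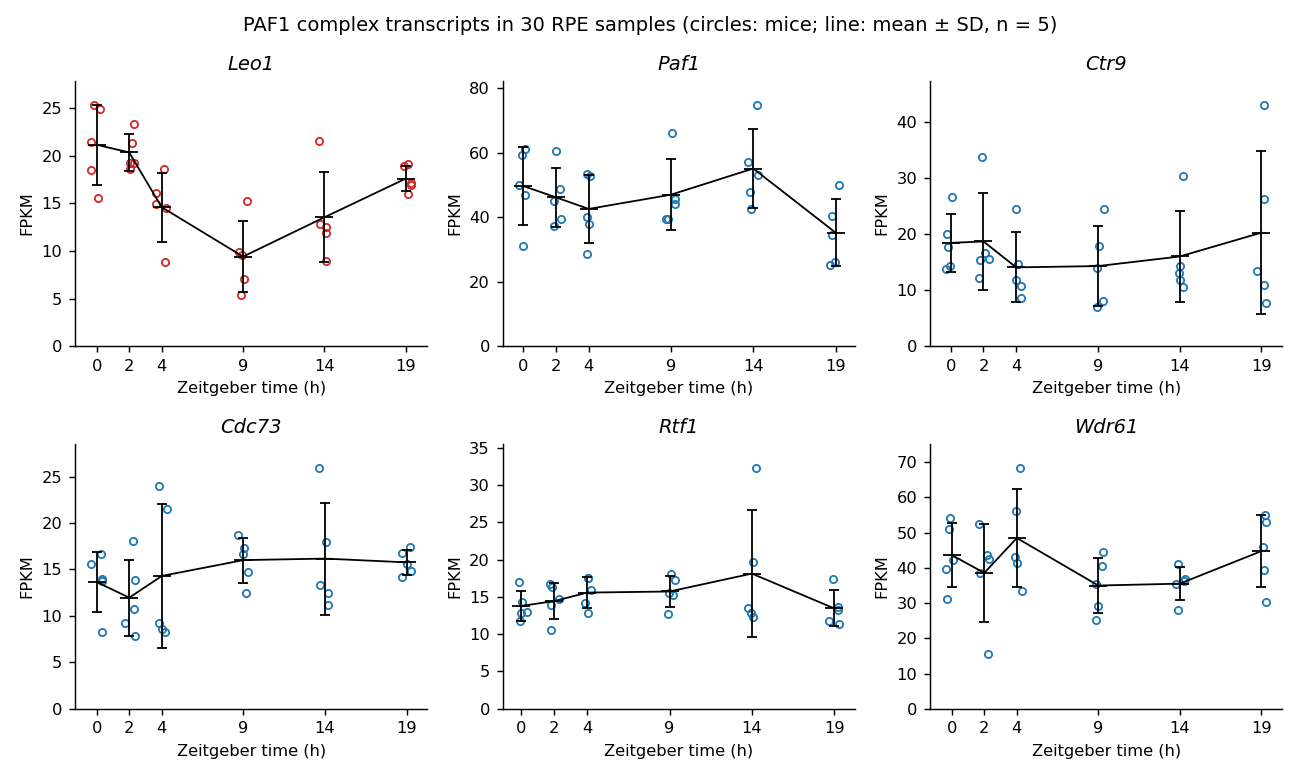
FPKM (vertical axes, from 0) of the 5 members and of Wdr61 against zeitgeber time in hours; each circle is 1 mouse, shifted sideways so that circles do not hide each other, and the lines join the means with SD bars (n = 5). The mean of Leo1 is 21.2 FPKM at ZT0, its lowest at ZT9 with 9.41 FPKM, and 17.6 FPKM at ZT19, while in the other panels the values of all time points overlap.

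Of the 15 pairs of time points, 3 did not overlap for Leo1 and 0 for each of the other 4 members. Over all kept genes 1.4% of such pairs did not overlap, and 249 of 16741 genes (1.49%) had at least 3 of them, as Leo1 did. A 24 h cosine fitted to log2(FPKM + 1) gave Leo1 an amplitude (mean to peak) of 0.57 ± 0.10 (SE, n = 30) with a peak at ZT 22.2 ± 0.642 h (SE). That amplitude was larger than 93.6% of those of all kept genes, whose median was 0.22. Differences between time points made up 62.9% of the variance of Leo1, against a median of 17.7% over all kept genes. On this scale the changes of low genes are understated.

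The rod marker score had a fitted amplitude of 0.55 and a peak at ZT 22.9, near that of Leo1. Its time point means were lowest at ZT9 (4.89), as for Leo1, and highest at ZT2 (6.46), with 5.78 at ZT19 and 5.604 at ZT0. Across the 30 samples the correlation of Leo1 with this score had r = 0.37 (two-sided permutation p = 0.0447, adjusted p = 0.251 over the 45 relations of members with marker scores) and rho = 0.27 (permutation p = 0.146, adjusted p = 0.437). It fell to r = 0.15 without the 2 samples farthest from the Leo1 median, and was 0.55 in left and 0.00 in right eyes. Left and right eyes stood for unlike mixes of time points. The permutations moved samples across time points, so these p-values contain the rhythm by which Leo1 was chosen. They are no test free of that choice. The fitted amplitude of Leo1 was 0.55 in a fit that also held the rod and stroma scores, and 0.62 in one with 5 marker scores. With the eye as a term it was 0.56. Estimated depth was lowest at ZT0 (mean 15.9 M reads) and ZT19 (16.8 M) and 19.1 to 19.5 M at the other times; its part in the result was not tested.

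Paf1, which encodes a core scaffold subunit and gives the complex its name, was the most abundant member. Its time point means were 49.7 ± 12.1 FPKM at ZT0, 46.2 ± 9.21 at ZT2, 42.6 ± 10.6 at ZT4, 47.0 ± 11.0 at ZT9, 55.1 ± 12.3 at ZT14 and 35.2 ± 10.4 at ZT19 (SD, n = 5 each). The lowest values stood at ZT19, with 25.2, 26.1, 34.4, 40.4 and 50.1 FPKM, and the highest at ZT14, with 42.7, 47.7, 53.2, 57.2 and 74.8 FPKM. Even these 2 time points overlapped. The cosine fit of Paf1 had an amplitude of 0.13 ± 0.11 (SE) and did not pass the test (limma's moderated F test, Benjamini-Hochberg adjusted p = 0.852). Differences among the 6 means did not pass either (adjusted p = 0.663).

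Ctr9, which encodes the large scaffold subunit that holds Paf1, was the most variable member. Its lowest, median and highest values were 13.7, 17.6 and 26.5 FPKM at ZT0, 12.1, 15.5 and 33.8 at ZT2, 8.50, 11.8 and 24.4 at ZT4, 6.96, 14.0 and 24.4 at ZT9, 10.5, 13.0 and 30.4 at ZT14, and 7.61, 13.3 and 43.0 at ZT19. The spread inside 1 time point thus reached from 7.61 to 43.0 FPKM, wider than any difference between medians. Its fitted amplitude was 0.24 ± 0.17 (SE) with a peak at ZT 21.2, and it did not pass the test (limma, adjusted p = 0.812). The amplitude was 0.16 without ZT19 replicate 1, the sample with 43.0 FPKM, and 0.14 with the rod and stroma scores in the fit. The test of the 6 means gave an adjusted p of 0.954.

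Cdc73 encodes parafibromin, a tumour suppressor of the parathyroid in humans. Its means were 13.6 ± 3.23 FPKM at ZT0, 11.97 ± 4.08 at ZT2, 14.3 ± 7.77 at ZT4, 16.0 ± 2.42 at ZT9, 16.2 ± 6.03 at ZT14 and 15.8 ± 1.33 at ZT19 (SD, n = 5 each). At ZT4 the 5 mice fell apart into 8.22, 8.55 and 9.25 FPKM against 21.5 and 24.0 FPKM, while at ZT19 they lay between 14.2 and 17.4 FPKM. Its amplitude of 0.19 ± 0.10 (SE), with a fitted peak at ZT 14.1, did not pass (limma, adjusted p = 0.709), nor did the 6 means (adjusted p = 0.891).

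Rtf1 encodes the subunit that recruits chromatin remodelling and H2B ubiquitylation in yeast, where its role was worked out. Its means lay between 13.5 ± 2.42 FPKM at ZT19 and 18.1 ± 8.46 FPKM at ZT14 (SD, n = 5). The ZT14 values were 12.3, 12.8, 13.6, 19.7 and 32.3 FPKM, and the highest of them came from replicate 3, the library with few genes above 0. Without that library the coefficient of variation of Rtf1 fell from 26.2% to 16.1%. Its amplitude was 0.14 ± 0.09 (SE, adjusted p = 0.770 by limma), and 0.12 without that library (adjusted p = 0.813). The 6 means gave an adjusted p of 0.920.

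Wdr61 had means between 34.97 ± 7.92 FPKM at ZT9 and 48.4 ± 13.8 FPKM at ZT4 (SD, n = 5), with an amplitude of 0.15 ± 0.11 (SE, adjusted p = 0.815 by limma). In all, 0 of the 4 other members passed the rhythm test, where 0.108% of all kept genes did. At an unadjusted p under 0.05 the count was also 0 of 4, against 8.76% of all kept genes. Their median amplitude was 0.17, against 0.22 over all kept genes. A fitted amplitude is never below 0 and grows with the spread between mice. Its median SE over all kept genes was 0.17, so the lower median of these members does not show less rhythm. In the test of the 6 means 0 of 4 passed (0.0717% of all kept genes), and 0 of 4 did so unadjusted (8.67%).

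How large a rhythm in step with Leo1 these genes could have was read from the part of each fitted cosine that points to the Leo1 peak time. It was -0.13 for Paf1 (95% confidence interval from -0.35 to 0.09), -0.10 for Cdc73 (from -0.34 to 0.15) and -0.14 for Rtf1 (from -0.33 to 0.04). For Wdr61 it was 0.15 (from -0.08 to 0.38) and for Ctr9 0.24 (from -0.10 to 0.57). The value for Ctr9 was 0.11 (from -0.20 to 0.43) with the rod and stroma scores in the fit. Leo1 itself, which set the time, stood at 0.57, which is its whole amplitude by construction. Since Leo1 was chosen by this rhythm, its value is a description and its difference from the others was not tested.

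**Figure D2:**
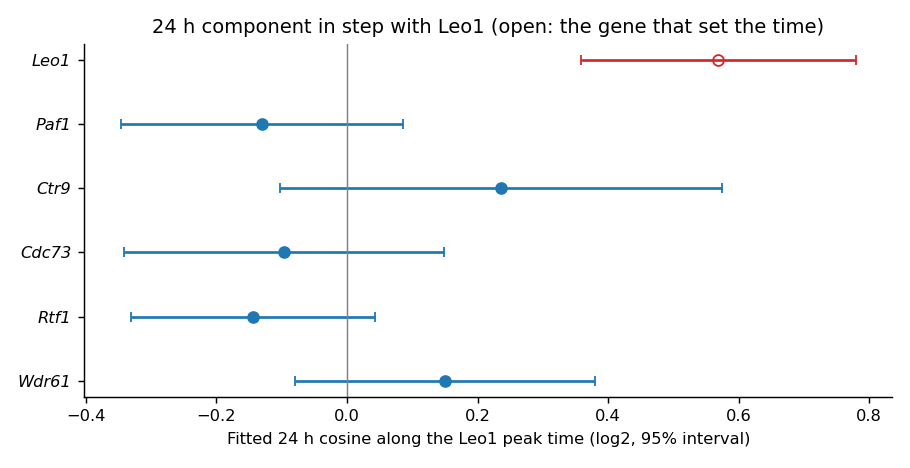
Part of the fitted 24 h cosine of each gene along the Leo1 peak time (horizontal axis, log2 scale), with 95% confidence intervals over 30 samples. The open circle is Leo1, which set the time and was chosen by this rhythm. The bar drawn for Leo1 is therefore no test. Upper limits are 0.09 for Paf1, 0.15 for Cdc73, 0.04 for Rtf1 and 0.38 for Wdr61, and 0.57 for Ctr9.

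The plain day-night contrast, ZT2, ZT4 and ZT9 against ZT14 and ZT19, takes lights-off to fall between ZT9 and ZT14, which the labels do not state. On the log2 scale day minus night was 0.04 for Paf1 (95% interval from -0.25 to 0.34), -0.12 for Ctr9 (from -0.64 to 0.40), -0.21 for Cdc73 (from -0.59 to 0.16) and 0.01 for Rtf1 (from -0.28 to 0.29). For Cdc73 it was -0.13 without ZT14 replicate 4 and -0.05 with 5 marker scores in the fit. By limma 0 of these 4 passed, where 0.0299% of all kept genes did, and 0 of 4 passed unadjusted, against 10.5% of all kept genes. For Leo1 the difference was -0.13 (a description). This contrast averages over its high ZT2 and low ZT9 values.

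The level of Leo1 relative to its partners was lowest at ZT9. Leo1 minus the mean of the other 4 members, on the log2(FPKM + 1) scale, was 0.05 ± 0.37 at ZT0, 0.08 ± 0.24 at ZT2, -0.34 ± 0.39 at ZT4, -1.06 ± 0.57 at ZT9, -0.68 ± 0.37 at ZT14 and -0.08 ± 0.21 at ZT19 (SD, n = 5 each). The ratio of the FPKM of Leo1 to that of Paf1 was 0.462 at ZT0, 0.212 at ZT9 and 0.540 at ZT19. These values contain the Leo1 level for which the gene was chosen and are a description.

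Over all 30 samples the members fell into a high and a low class per transcript length. Paf1 had a mean of 46.0 ± 11.8 FPKM (SD, n = 30), and Wdr61 41.0 ± 10.8 FPKM. Ctr9 followed with 16.9 ± 8.39, Leo1 with 16.1 ± 5.22, Rtf1 with 15.2 ± 3.97 and Cdc73 with 14.6 ± 4.53 FPKM. Paf1 and Wdr61 did not differ beyond their spread (log2 difference 0.17 ± 0.62 SD, Paf1 higher in 20 of 30 samples, adjusted p = 0.364 in a two-sided sign-flip permutation test over 5 neighbouring pairs). Wdr61 was above Ctr9 by 1.31 ± 0.74 on the log2 scale, in 28 of 30 samples (adjusted p = 4.99995e-05, from the smallest p that 100000 permutations can give). Ctr9 exceeded Leo1 by 0.01 ± 0.62 and Leo1 exceeded Rtf1 by 0.04 ± 0.67, far less than the spread. Rtf1 and Cdc73 differed by 0.08 ± 0.52 (adjusted p = 0.728). FPKM depends on the transcript length used by the authors, so an order between genes carries that choice.

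Within a time point Rtf1, Leo1 and Paf1 were among the steadier genes. Their SD between mice of the same time point was 0.30, 0.34 and 0.34 on the log2 scale, where the median over kept genes was 0.63. Cdc73 had 0.43 and Ctr9 0.64. By this measure 7.07% of kept genes were steadier than Rtf1, 11.5% than Leo1, 11.9% than Paf1, 22.9% than Cdc73 and 51.4% than Ctr9. The SD on this scale depends on level, and the filter also kept genes of low level. Genes of like level were not compared. A choice by fitted rhythm favours genes with a small spread within time points, so the place of Leo1 is only a description.

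Subunits of 1 complex could vary together from mouse to mouse, and the 10 pairs of the 5 members were compared across the 30 samples. After adjustment over the 10 pairs 0 passed, by r or by rho. The highest correlation was that of Leo1 with Ctr9, with r = 0.39 (two-sided permutation p = 0.0339, adjusted p = 0.253) and rho = 0.50 (permutation p = 0.00546, adjusted p = 0.0546). It was r = 0.45 without the 2 samples farthest from the Leo1 median, 0.30 in left eyes and 0.45 in right eyes. Here too the left and right eyes stood for unlike mixes of time points. The lowest was that of Leo1 with Rtf1, with r = -0.36 (permutation p = 0.0505, adjusted p = 0.253). Its rho was -0.23 (permutation p = 0.230, adjusted p = 0.869). ZT14 replicate 3, the library with few genes above 0, had the highest Rtf1 value (32.3 FPKM) and a low Leo1 value (8.95 FPKM). For pairs with Leo1 these p-values contain the rhythm by which it was chosen, since samples were permuted across time points. Taken as deviations from the time point means, the 10 values of r lay between -0.26 and 0.30, and 0 passed.

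Picked after the ranks were seen, ZT14 replicate 1 was high for several members at once. Other extreme samples were not: ZT9 replicate 3 ranked 2 of 30 for Paf1 but 29 for Leo1. Likewise ZT19 replicate 1 ranked 1 for Ctr9 but 29 for Rtf1. ZT14 replicate 1 had the highest Paf1 value of all 30 samples (74.8 FPKM), the second highest Rtf1 value (19.7), the third highest Ctr9 value (30.4) and the fourth highest Leo1 value (21.5). Its Cdc73 value of 17.9 FPKM was the 6th highest. The rod score of this sample was 7.65, against 3.75 to 5.47 in the other ZT14 mice, and its stroma score 5.92, against 6.49 to 7.21; their part in these values was not tested. Without this sample the fitted amplitude of Leo1 was 0.61 and that of Ctr9 0.28 (adjusted p = 0.690 by limma).

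Of the 45 relations of a member with a marker score 0 passed after adjustment, by r or by rho, and 8 had an unadjusted permutation p under 0.05 for r. Of these 8, Ctr9 held 4, Cdc73 held 3 and Leo1 the 1 given above. Ctr9 had r = 0.48 with the rod score (adjusted permutation p = 0.146), r = -0.46 with the stroma score (rho = -0.55, adjusted permutation p = 0.146 for r and 0.0592 for rho) and r = -0.41 with the endothelium score. Cdc73 had r = 0.45 with the RPE score and r = -0.45 with the oligodendrocyte score (adjusted permutation p = 0.146).

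The wider machinery in which the complex works was described by 5 further lists, chosen with earlier results of these data known. They held elongation factors and histone chaperones, pausing factors with the kinase P-TEFb, RNA polymerase II subunits, the writers of the histone marks that depend on the complex, and cleavage and termination factors. With Wdr61 these were 76 kept genes, of which 0 passed the rhythm test, where 0.108% of all kept genes did. Beside so low a share, 0 of 76 says nothing particular about these genes. An unadjusted p under 0.05 was found for 3 of these 76 genes, against 8.76% of all kept genes. Their median amplitude was 0.15, against 0.22 over all kept genes. Since amplitude grows with the spread between mice, this gap does not show less rhythm either. The list of 20 core clock genes had 8 that passed, 16 that did so unadjusted, and a median amplitude of 0.82.

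Among elongation factors and chaperones, 0 of 19 passed, where 0.108% of all kept genes did, and the median amplitude was 0.10. The smallest p was that of Aff4, scaffold of the super elongation complex, with an amplitude of 0.31 ± 0.12 (SE) and a peak at ZT 13.8 (limma, adjusted p = 0.577). Among the 13 pausing and P-TEFb genes it was Nelfa, a subunit of the negative elongation factor (amplitude 0.29, peak ZT 6.28, adjusted p = 0.550). Among the 18 histone mark writers it was Ash2l, a shared subunit of the H3K4 methyltransferases (amplitude 0.31, peak ZT 6.98, adjusted p = 0.618). Among the 13 cleavage and termination genes it was Cpsf1, which encodes the large subunit of the cleavage and polyadenylation factor (amplitude 0.25, peak ZT 4.47, adjusted p = 0.538). None of these 4 passed the rhythm test, so no difference between their fitted peaks and that of Leo1 is read from them.

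Of the 12 polymerase subunit genes Polr2k had the smallest p and an amplitude of 1.15 ± 0.33 (SE, limma, adjusted p = 0.378). It was listed at 0 in 17 of 30 samples, in 1 of 5 at ZT4 and in 4 of 5 at both ZT0 and ZT19. A 0 in such a table can be a failed estimate.

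**Figure D3:**
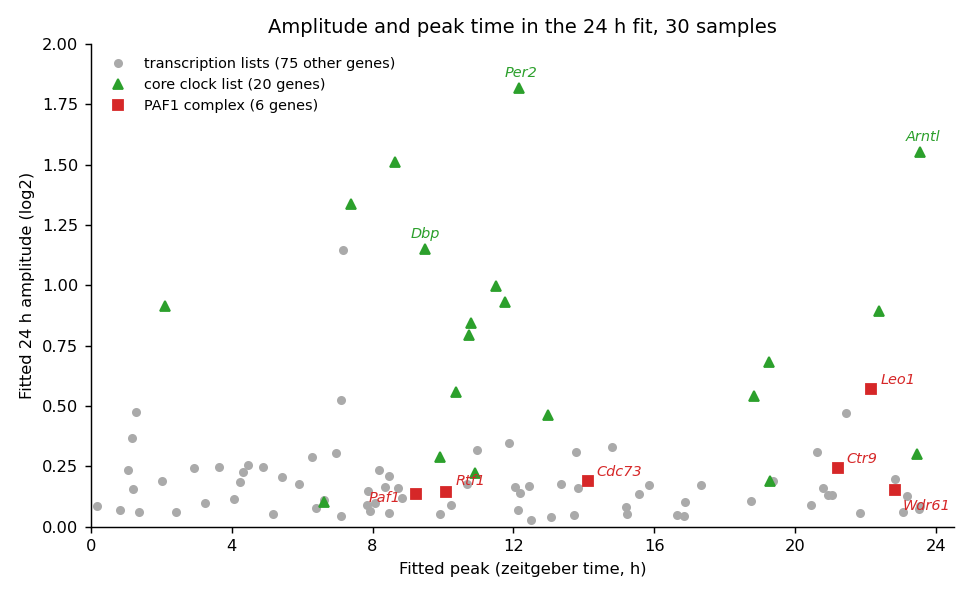
Fitted 24 h amplitude (vertical axis, log2 scale) against fitted peak (horizontal axis, zeitgeber time in hours) over 30 samples; squares are the PAF1 complex with Wdr61, triangles the core clock list and grey circles the other genes of the transcription lists. Leo1 stands at 0.57 and ZT 22.2, above the other 5 subunit genes, which lie between 0.13 and 0.24.

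Which genes had a course most like that of Leo1 was read from Pearson's r of log2(FPKM + 1) over the 30 samples, a description over samples that share their time points. The first of 16740 genes was Arntl, with r = 0.75 and rho = 0.77. It had r = 0.75 without the 2 samples farthest from the Leo1 median and 0.74 without ZT14 replicate 3, in which Arntl was listed at 0. Over all genes 5% to 95% of the values of r lay between -0.32 and 0.35.

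Arntl levels were 11.3, 15.8, 22.4, 22.7 and 25.4 FPKM at ZT0 and 9.79, 11.6, 12.2, 12.7 and 16.2 FPKM at ZT19. At ZT9 they were 1.37, 1.47, 3.28, 3.57 and 4.05 FPKM, and at ZT14 0, 0.905, 1.73, 3.23 and 5.22 FPKM. Both genes were thus low at ZT9, and at ZT14 Arntl was still near its floor. Leo1 at ZT14 lay between 8.95 and 12.9 FPKM, within its ZT9 range of 5.39 to 15.3 FPKM, except for 21.5 FPKM in replicate 1. Arntl peaked at ZT 23.5 with an amplitude of 1.55 ± 0.15 (SE, limma, adjusted p = 3.73e-07), a larger swing than that of Leo1.

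**Figure D4:**
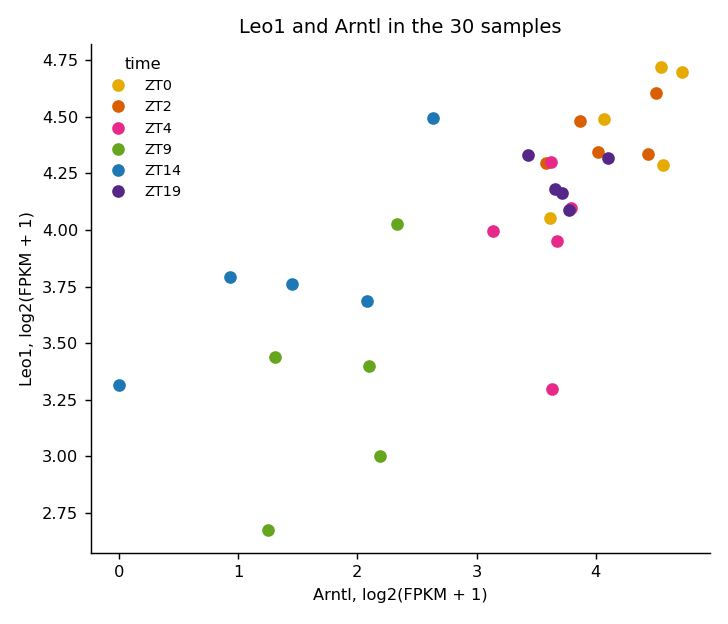
Leo1 (vertical axis) against Arntl (horizontal axis), both as log2(FPKM + 1), in the 30 samples, coloured by zeitgeber time. ZT0, ZT2 and ZT19 lie at the upper right and ZT9 and ZT14 at the left, with r = 0.75 over all samples.

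A group of 6 called clock genes, with fitted peaks from ZT 7.40 to ZT 12.1, had negative values of r with Leo1, from -0.67 for Dbp, -0.59 for Per3, -0.57 for Nr1d2 and -0.56 for Per1 to -0.41 for Nr1d1 and -0.39 for Per2. As deviations from the time point means all 6 had positive values of r. They were 0.07 for Per3, 0.08 for Per1, 0.17 for Dbp, 0.28 for Nr1d1, 0.39 for Per2 and 0.50 for Nr1d2. Over all genes the 0.05 and 0.95 quantiles of such values were -0.38 and 0.42. Of the 6 only Nr1d2 lay outside this range.

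After Arntl, the closest genes were AC153949.1 (r = 0.70), Pnpla3 (0.69), which encodes a lipid droplet acylhydrolase, and Syt3 (0.63), which encodes a synaptotagmin. Then came Chtf8, Dtx4, Cenpc1, Senp2, Gtf2a2, which encodes a subunit of the general transcription factor TFIIA, and Sdf2l1, all at r = 0.61. Without the 2 samples farthest from the Leo1 median these 9 values lay between 0.38 for Gtf2a2 and 0.73 for Chtf8. Of these 9, AC153949.1, Pnpla3, Syt3 and Cenpc1 were listed at 0 in at least 1 sample, and none passed the rhythm test. Among the partners of Leo1, Ctr9 ranked 506 of 16740 by this measure, Wdr61 6850, Cdc73 12174, Paf1 12215 and Rtf1 16227.

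Likeness from mouse to mouse, once the time point means were taken out, gave other genes. The 10 closest were Zfp69, Ice1, Tmem18, Gabrr2, Tmem186, Invs, Phf21b, Tmem185a, Anp32e and Map4k4, with r from 0.76 down to 0.67, and 0 of them were among the first 10. Ice1 encodes a subunit of the little elongation complex, which acts on small nuclear RNA genes. Zfp69 was listed at 0 in 9 of 30 samples. Arntl ranked 107 of 16740 on this measure, with r = 0.57.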

How the data were processed

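RNA from 30 samples had been sequenced as single reads of 75 bp with a stated mean of 20 M reads, per the labels. The authors deposited 1 FPKM value per gene and sample, a unit taken from the table's name; STAR, Cufflinks, DESeq2 and mm10 appear in the submitters' processing notes, with no role or version. Annotation, strand setting and the treatment of shared reads are not given in the sources used here. Because the deposited values are FPKM and not counts, no count test was run, and the decimal commas of the table were read as points. Depth was estimated from the steps of 1 read between low values of genes with 1 transcript.

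Log2(FPKM + 1) was fitted for genes that reached an FPKM of 1 in 5 or more samples, with limma 3.58.1 in R 4.3.3 (variance trend), over all 30 samples, as a 24 h cosine and as 6 means. Tests are two-sided, adjusted by Benjamini-Hochberg over 16741 genes, threshold 0.05. Correlations used 100000 permutations. Scripts were tested on simulated data. Positions come from GENCODE M21 (GRCm38, the assembly of mm10), in which 51625 of the 51904 IDs were found. One listed elongation gene, Rtf2, was not used.

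The members, gene lists and tests were chosen with earlier results of these data known. Genes were named by rule: the members and Wdr61, the smallest rhythm p and the called genes in each list, called genes that peak within 3 h of Leo1, the neighbours of Leo1, and the 10 most like Leo1 on either measure. 1 gene that the rule names is not reported here. Alternatives were other pseudocounts, filters, scalings and variance settings, the eye or marker scores as terms, and each sample left out.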

Additional observations from a re-analysis of the deposited data

Results flagged for a closer look

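In 3 of the 30 groups of 5 mice (5 members at 6 time points) 1 sample lay far from the other 4. For normally distributed values chance flags about 1 in 20 groups, or 1.5 of 30. FPKM was used here without a log, so the rate by chance may differ. Paf1 was 66.1 FPKM in ZT9 replicate 3, against 39.5 to 45.8 FPKM in the other ZT9 mice. Ctr9 was 33.8 FPKM in ZT2 replicate 4, against 12.1 to 16.6 FPKM in the others. Ctr9 was also 30.4 FPKM in ZT14 replicate 1, against 10.5 to 14.2 FPKM in the others, in the sample that ranked among the 6 highest for all 5 members.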

How the results depend on the processing

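The rhythm, time point and pair results of Paf1, Ctr9, Cdc73 and Rtf1 stayed on the same side of their thresholds under the alternatives run, and adjusted p in the rhythm test lay between 0.768 and 0.937 for Paf1, 0.690 and 0.910 for Ctr9, 0.568 and 0.852 for Cdc73, and 0.680 and 0.834 for Rtf1. The exception was the component of Rtf1 along the Leo1 peak, whose interval left 0 with 5 marker scores as terms (-0.23, from -0.43 to -0.02); the cause was not tested. The Leo1 amplitude was 0.44 to 0.62 over the other settings, lowest with a pseudocount of 5, and 0.50 to 0.63 with 1 sample left out. Day minus night changed sign for Paf1 with 5 marker scores (-0.022). With 1 sample left out it was -0.0088 to 0.11 for Paf1, negative without ZT19 replicate 2 or 5, -0.25 to 0.041 for Ctr9, positive without ZT14 replicate 1 or ZT19 replicate 1, -0.29 to -0.13 for Cdc73, smallest without ZT14 replicate 4, and -0.044 to 0.12 for Rtf1, negative without any 1 of 11 samples, all with intervals around 0. The Ctr9 amplitude was 0.16 to 0.34 with 1 sample left out, lowest without ZT19 replicate 1, and its component along the Leo1 peak 0.16 to 0.32. Genes called rhythmic numbered 14 to 24 with 1 sample left out and 16 to 25 in the other settings. Rescaling shifted a sample by at most 0.21 (log2). No paired analysis was possible because the labels give no replicate numbers, and each mouse gave 1 sample.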
